A study of Mus musculus with 16 samples.

Results

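Imprinted genes are transcribed mainly from 1 of the parental copies, and 10 of them are described here in nuclear RNA of the mouse colon: Meg3, Rian, Mirg, Dlk1, Snhg14, Snrpn, Ndn, Magel2, Peg3 and Ube3a. They were picked by symbol among the 51912 genes of the deposited table because Meg3 and Rian stand among the most abundant RNAs of neuronal nuclei and are higher there than in other nuclei. Their abundance and the contrast between neuronal and non-neuronal nuclei therefore chose them, so both are given below as a description without a test. All 10 matched 1 row each.

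The nuclei came from the muscle layer of the colon with its myenteric plexus, in C57BL/6 mice kept free of specific pathogens. Every mouse, controls included, had received AAV9-CaMKII-EGFPKASH into a vein 5 weeks earlier, a virus whose CaMKII promoter drives a green fluorescent protein anchored to the nuclear envelope. The agonist 3-methylcholanthrene, which activates the aryl hydrocarbon receptor (AhR), or corn oil as control, was given into the peritoneum 14 hours before the nuclei were taken. EGFP-positive nuclei (neuronal) and EGFP-negative nuclei (non-neuronal) were sorted, which gives 4 groups of 4 libraries: neuronal control, neuronal agonist, non-neuronal control and non-neuronal agonist. A neuron that did not take up the virus or did not use the promoter falls among the EGFP-negative nuclei. The ages of the mice and the dose are not stated in the labels, nor whether a library is 1 mouse or a pool, so a p-value measures only the spread between these libraries.

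Imprinting is set in the germ line by DNA methylation of control regions, after which whole clusters of genes follow the parent of origin. In the Dlk1 to Dio3 cluster the maternal copy makes the long noncoding RNAs Meg3, Rian and Mirg, which carry small nucleolar RNAs and microRNAs, and the paternal copy makes the proteins Dlk1 and Rtl1. In the Prader-Willi and Angelman syndrome region the paternal copy makes Snrpn, Ndn, Magel2 and the long host RNA Snhg14, whose far end runs antisense through Ube3a, and neurons therefore use mainly the maternal Ube3a. The zinc finger gene Peg3 and its neighbour Usp29 are transcribed from the paternal copy in opposite directions out of 1 shared control region. These expression counts do not tell the parental copies apart.

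The libraries held 2663738 to 4902303 counts. The summed level of 10 neuron markers was 3550 to 6957 CPM (counts relative to the TMM-scaled library total) over the 8 neuronal libraries and 132 to 567 CPM over the 8 non-neuronal ones. All 10 of these markers had counts in every group. Of the other lists, 6 smooth muscle markers summed to 206 to 857 CPM in neuronal and 2924 to 12294 CPM in non-neuronal libraries, and 6 epithelial markers to 4.93 to 99.8 CPM and 1347 to 14801 CPM. Fibroblast markers summed to 5.80 to 48.4 CPM in neuronal and 265 to 1340 CPM in non-neuronal libraries, endothelial ones to 1.31 to 18.2 and 196 to 618 CPM, and macrophage ones to 0.770 to 14.7 and 75.8 to 251 CPM. The sums overlapped for glia, at 2.27 to 19.6 and 14.1 to 89.9 CPM, and for interstitial cells, at 304 to 462 and 222 to 532 CPM. Of the 3 interstitial cell markers Etv1 was the higher one in neuronal nuclei (422 against 133 CPM with corn oil), while Kit and Ano1 were lower (2.91 against 141 CPM and 2.77 against 82.1 CPM). The glia marker S100b also had more counts in neuronal nuclei, 27 against 10 with corn oil. The glia marker Sox10, the macrophage marker Csf1r and the endothelial marker Kdr were low but above 0 in both neuronal groups, and C1qa, another macrophage marker, was at 0 in both, as was Cx3cr1 with the agonist. The AhR target Cyp1a1 had 0 counts in neuronal control, 92 in neuronal agonist, 1 in non-neuronal control and 1385 in non-neuronal agonist libraries. Cyp1b1 and Tiparp, also checked, had more counts with the agonist in both populations. Ahrr went from 126 to 913 counts with the agonist in neuronal nuclei but from 182 to 90 in non-neuronal nuclei. Mitochondrially encoded genes took 1.77% to 6.11% of counts in neuronal and 10.3% to 42.8% in non-neuronal libraries.

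Meg3 and Rian dominated the group. The 10 genes took 1.72% to 2.64% of all counts in the neuronal libraries and 0.0429% to 0.216% in the non-neuronal ones. Per kilobase of exon, the scale on which genes can be compared, the order in neuronal control nuclei was Meg3 with 541 ± 140 CPM per kb (SD, n = 4), Rian with 310 ± 24.8, Peg3 with 197 ± 13.8 and Snrpn with 50.2 ± 1.94. Mirg followed with 36.2 ± 6.27, Snhg14 with 21.6 ± 1.76, Ube3a with 13.0 ± 3.10 and Ndn with 2.41 ± 0.962 CPM per kb, and Magel2 and Dlk1 were last with 0.219 ± 0.149 and 0.0223 ± 0.0257. Among 18519 genes Meg3 ranked 12th per kilobase, Rian 21st and Peg3 38th, while Ndn ranked 10663rd. Down to Ndn no library of one gene reached the range of its neighbour in this order. In neuronal agonist nuclei the range of Meg3, 202 to 830 CPM per kb, enclosed that of Rian, 250 to 355.

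**Figure D1:**
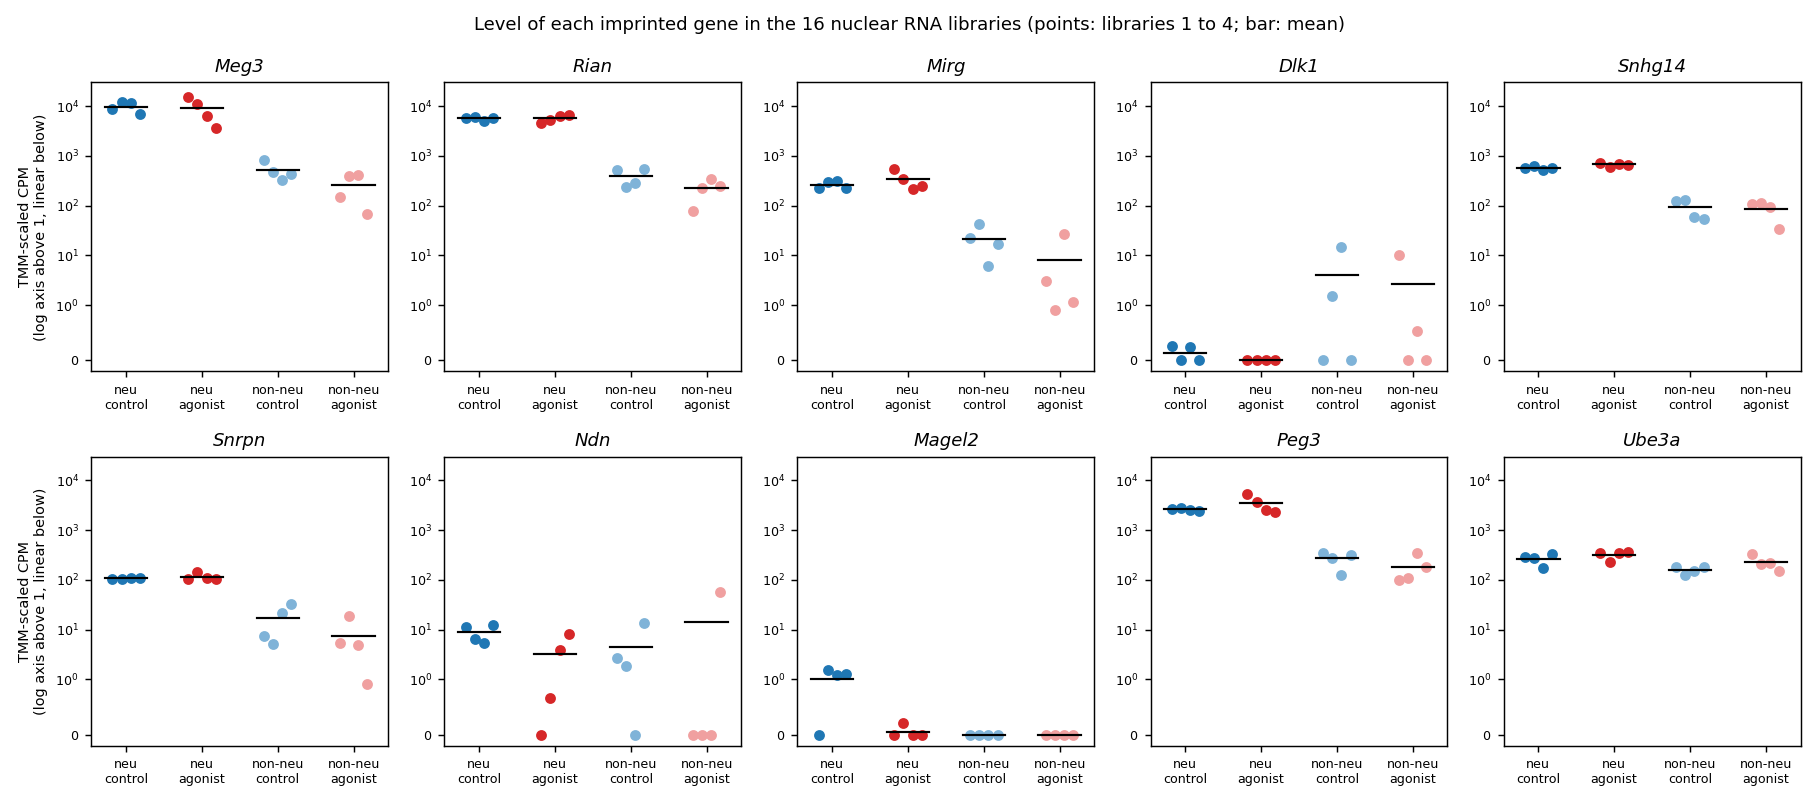
Level of each of the 10 genes in the 16 libraries, in TMM-scaled CPM on an axis that is logarithmic above 1 and linear below; points are libraries 1 to 4 of a group and the bar is their mean. Neu is neuronal and non-neu non-neuronal. Meg3, Rian, Mirg, Snhg14, Snrpn and Peg3 lie higher in all neuronal than in all non-neuronal libraries, Ube3a overlaps, and Dlk1, Ndn and Magel2 stand at or near 0 in many libraries.

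Meg3, a long noncoding RNA known to bind polycomb proteins, lies on chromosome 12 (GRCm38, 109541001 to 109571726, plus strand, 18089 exon bases). Its level was 8562, 11983, 11784 and 6802 CPM in neuronal control libraries 1 to 4, and 15017, 11179, 6435 and 3645 CPM in neuronal agonist libraries. In the non-neuronal libraries it was 810.0, 480.2, 323 and 434 CPM with corn oil, and 151, 400.0, 416 and 69.2 CPM with the agonist. The populations did not overlap, and the lowest neuronal library stood 8.40-fold above the highest non-neuronal one with corn oil. The fitted fold was 20.3 (log2 4.34, SE 0.31) in control and 34.3 (log2 5.10, SE 0.59) in agonist libraries. In these sorted bulk samples a larger share of Meg3-positive nuclei and more RNA per nucleus cannot be told apart, and the same holds for every gene below.

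Rian is the host RNA of a row of small nucleolar RNAs on the same strand (109603940 to 109661716, 18234 exon bases). It had 5740, 6142, 5048 and 5710 CPM in neuronal control and 4555, 5140, 6348 and 6469 CPM in neuronal agonist libraries. The non-neuronal libraries held 509, 241, 278 and 548 CPM with corn oil, and 76.7, 225, 348 and 247 CPM with the agonist. Again no library of one population reached the other. The folds were 15.3 (log2 3.93, SE 0.28) and 24.9 (log2 4.64, SE 0.41). The highest neuronal control library was 1.22-fold the lowest for Rian and 1.76-fold the lowest for Meg3.

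Mirg, the host of a microRNA cluster further along the strand (109729764 to 109749460, 7292 exon bases), had 227, 300.0, 307 and 223 CPM in neuronal control and 545, 344, 216 and 249 CPM in neuronal agonist libraries. With corn oil the non-neuronal libraries held 22.2, 41.7, 5.98 and 16.6 CPM. With the agonist, non-neuronal library 3 stood at 26.9 CPM, from 103 counts, and the others at 3.02, 0.903 and 1.16 CPM, from 8, 2 and 5 counts. The fold was 12.9 (log2 3.69, SE 0.47) in control and 41.9 (log2 5.39, SE 0.93) in agonist libraries. Without non-neuronal agonist library 3, the agonist log2 fold change was 7.58.

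Dlk1, the paternally expressed membrane protein that restrains Notch signalling and fat cell formation, stands at the head of the cluster (109452823 to 109463336). It had 2 counts in all in neuronal control and 0 in neuronal agonist libraries. Its 52 non-neuronal control counts came as 48 in library 3 and 4 in library 2, and its 29 non-neuronal agonist counts as 27 in library 1 and 2 in library 3. Dlk1 was too low to be tested in any comparison.

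Genes between Dlk1 and Dio3 that are not among the 10 were read from the same libraries. Of 114 such rows, 8 reached a mean of 10 counts per library in some group. In control nuclei 5 of them could be tested and all 5 were higher in neuronal nuclei, beside 11.8% of all 15285 genes tested (edgeR quasi-likelihood F-test, Benjamini-Hochberg adjusted p under 0.05). Rows this abundant in neuronal nuclei pass the count filter through that group, so their number has no weight as evidence. The 5 include Mir1188, which had 0 counts in every non-neuronal control library. In agonist nuclei 4 were tested and 3 were higher, beside 6.67% of 14065 genes.

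The paternally expressed Rtl1, a retrotransposon-derived gene needed by placental vessels, lies on the opposite strand between Meg3 and Rian. Within its span 6 microRNA hairpins lie on the strand opposite to Rtl1. The strand setting of the counting is not given, so reads from either strand could not be separated in this row. Its counts were 345, 498, 516 and 290 in neuronal control and 40, 7, 25 and 153 in non-neuronal control libraries, a log2 fold change of 2.83 (SE 0.63, edgeR adjusted p = 0.00459). With the agonist the log2 fold change of Rtl1 was 2.80 (SE 1.1, edgeR adjusted p = 0.115). Between Rian and Mirg, the noncoding B830012L14Rik rose by 2.89 in log2 in neuronal control nuclei (SE 0.28, edgeR adjusted p = 1.41e-05) and by 4.27 in neuronal agonist nuclei (SE 0.58, edgeR adjusted p = 0.000311). Gm37899, also between them, had a log2 fold change of 3.76 in control (SE 0.43, edgeR adjusted p = 5.22e-05), and Gm26945, inside the Rian span, one of 3.54 (SE 0.70, edgeR adjusted p = 0.00206). The agonist calls of B830012L14Rik and Gm26945 held without any 1 library. That of Gm37899 ended without any 1 of the neuronal agonist libraries or without non-neuronal agonist library 3, where its adjusted p was 0.0858.

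**Figure D2:**
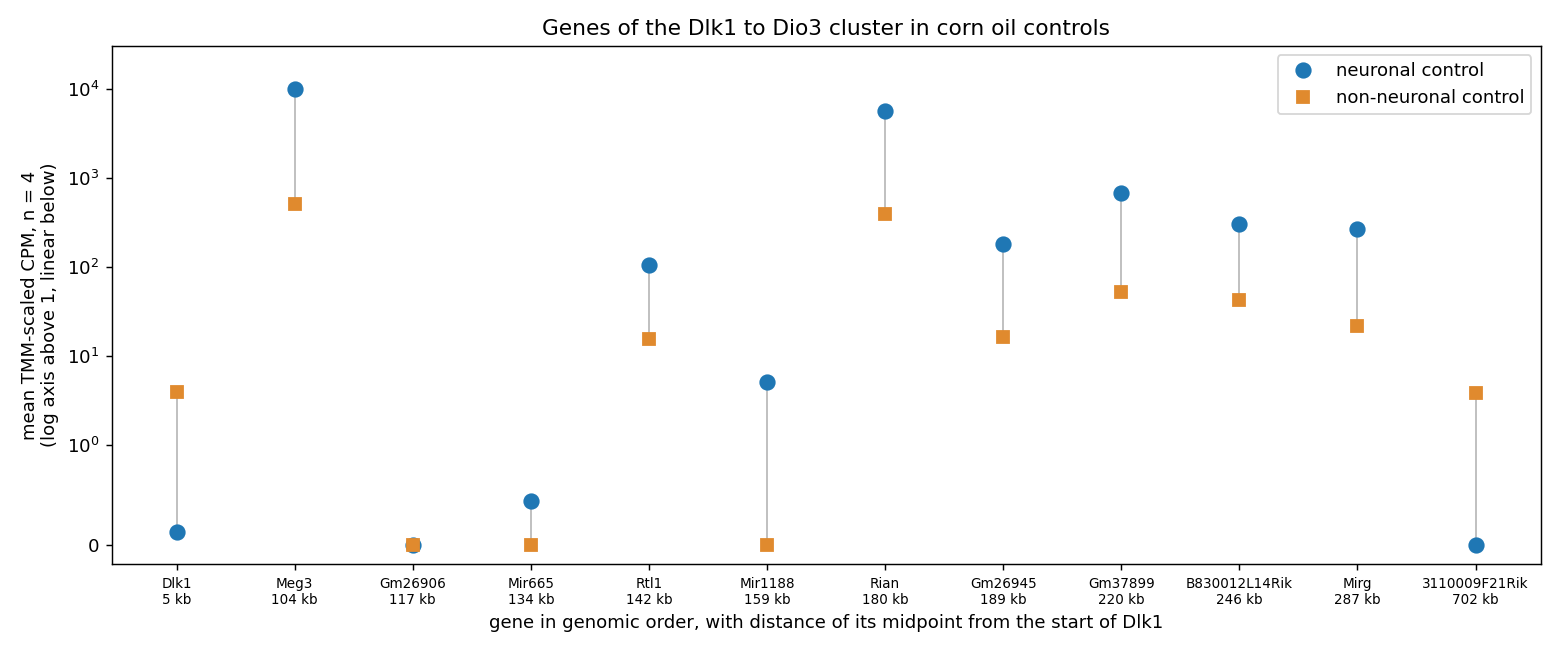
Mean TMM-scaled CPM (axis logarithmic above 1, linear below; n = 4) of the genes of the Dlk1 to Dio3 cluster in neuronal control (circles) and non-neuronal control (squares) nuclei, in genomic order with the distance of each midpoint from the start of Dlk1. From Meg3 to Mirg the long RNAs lie higher in neuronal nuclei, Gm26906 is at 0 in both, and Dlk1 and 3110009F21Rik at either end lie lower there.

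The cluster is known for its microRNAs, and the sequences below are from those that lie within Meg3, Rian and Mirg, with the seed, the bases that choose targets, in capitals. The RefSeq table (GRCm38.p6) places 14 hairpins with 26 mature microRNAs within the span of Mirg, 3 with 6 within Rian, and 1 hairpin with 3 mature microRNAs within Meg3, all on the host's strand. Among these 35 mature sequences only 1 seed, bases 2 to 8, occurs more than once. It is shown for the pair of Mirg microRNAs that carry it, beside 2 well-known Mirg microRNAs and the only cluster microRNA that passed the count filter, which lies in Rian.
miR-453: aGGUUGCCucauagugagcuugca
miR-496a-5p: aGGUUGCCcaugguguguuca
miR-134-5p: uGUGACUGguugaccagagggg
miR-410-3p: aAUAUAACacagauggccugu
miR-1188-5p: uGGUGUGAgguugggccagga
miR-1188-3p: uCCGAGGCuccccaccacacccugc

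The RNA libraries were not made to hold mature microRNAs, so these counts read the host or hairpin RNA. Of 67 microRNA rows in the cluster, 31 had any count, with 518 counts in neuronal and 24 in non-neuronal libraries. The row of miR-1188 (chr12:109611822-109611941, plus strand) had 18, 21, 24 and 17 counts in neuronal control libraries and 0 in every non-neuronal control library. Taking 3 counts over the group as the limit that 0 allows, the mean of Mir1188 in neuronal control nuclei was 22.5-fold that limit. It passed the count filter through its neuronal counts alone, so no p-value is given. Its row is in the count of called rows above. With the agonist its row held 2, 19, 27 and 28 counts in neuronal and 0, 2, 0 and 0 in non-neuronal libraries. Neuronal agonist library 1, with the lowest of these neuronal counts, also had the lowest neuronal level of Rian. The limit covers only the counting error of the group at 0, not the spread of the neuronal libraries.

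The neuronal libraries differed among themselves in how much Meg3 they held for each Rian count. The ratio of Meg3 to Rian counts was 1.49, 1.95, 2.33 and 1.19 in neuronal control libraries 1 to 4, and 3.30, 2.17, 1.01 and 0.563 in neuronal agonist libraries. It was 1.59, 1.99, 1.16 and 0.792 in non-neuronal control and 1.97, 1.78, 1.19 and 0.280 in non-neuronal agonist libraries. Both agonist groups thus spread wider than the control groups, with medians of 1.59 against 1.72 in neuronal and 1.49 against 1.38 in non-neuronal libraries. In each of the 4 groups the ratio was lowest in library 4. The spread itself was not tested.

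Neuronal agonist library 1 stood at one end of several genes. It had the highest neuronal level of Meg3, Mirg, Peg3 and Rtl1 and the lowest of Rian and Usp29. Rtl1 had 1473 counts there against 836, 338 and 337 in the other 3 neuronal agonist libraries. The antisense row Gm26906 had all of its 318 counts in this library. All of its 1228 exon bases lie in Meg3 exons on the opposite strand. With the strand setting not given, its counts could not be told apart from Meg3 reads. Mir665 had 48 of its 59 counts in this library. This library also had the fewest genes with a count of all 16 (17293), the lowest TMM factor of the neuronal libraries (0.903) and the highest neuron marker sum (6957 CPM). The part of these properties in the levels of the imprinted genes was not tested.

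**Figure D3:**
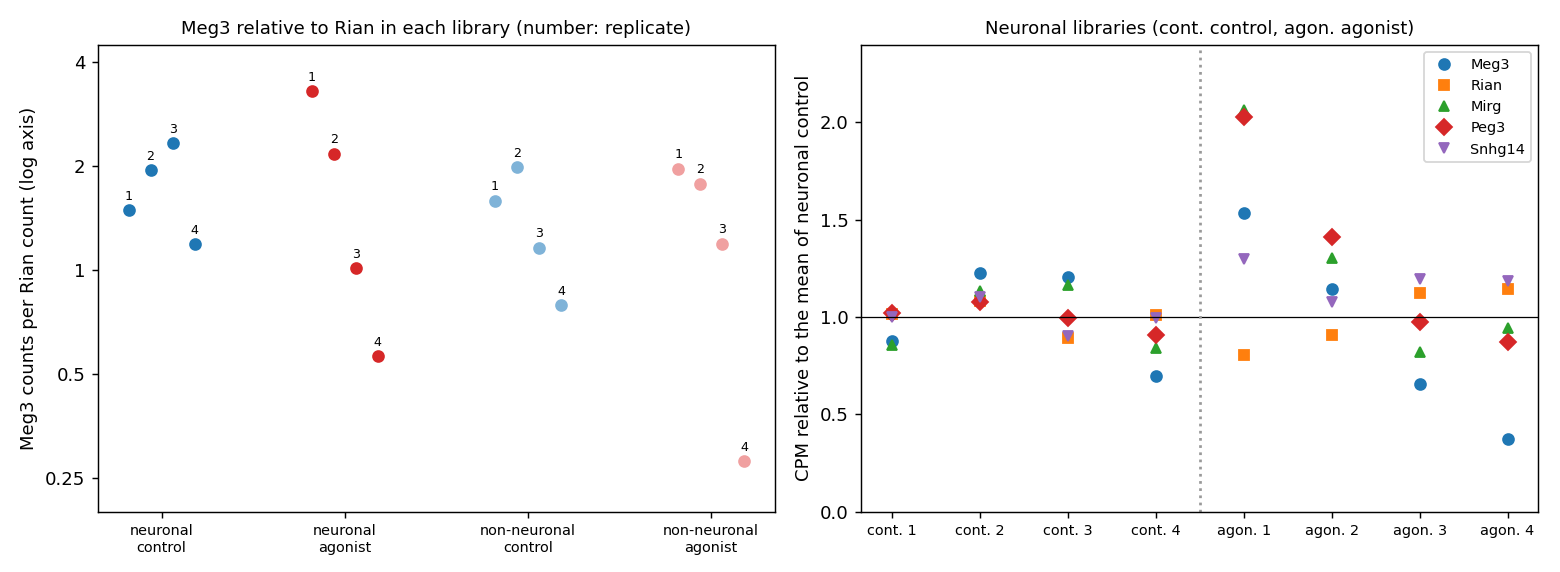
Left, Meg3 counts per Rian count in each library on a log axis, with the replicate number above each point, for the 4 groups; right, level of 5 genes in the 8 neuronal libraries relative to the mean of the neuronal control libraries. The ratio runs from 0.563 to 3.30 in neuronal agonist libraries, and Meg3, Mirg and Peg3 are highest and Rian lowest in agonist library 1.

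By Pearson correlation of log2 levels, the genes most like Meg3 over all 16 libraries were Pclo with r = 0.987, Kif21a with 0.979, and Erc2, Fstl5 and Nos1 with 0.976 each. Pclo and Erc2 encode scaffold proteins of the presynaptic active zone, Kif21a a kinesin motor and Nos1 the neuronal nitric oxide synthase. These 16 points form 2 separate populations and share depth and sorting, so r mostly repeats the contrast between them. Over the 8 neuronal libraries alone the genes most like it included Mdn1 with r = 0.991, Gm14117 and Fxyd5 with 0.979 each, and Ankrd12 with 0.972. There Peg3 stood at r = 0.72 and Mirg at 0.71, and Rian at -0.77, against 0.94 for Rian over all 16 libraries. They are descriptions over few libraries, chosen as the highest of 18565 and 18479 genes.

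Peg3, a zinc finger protein linked to maternal behaviour and body size, lies on chromosome 7 (6703892 to 6730431, minus strand, 13324 exon bases). Its level was 2672, 2827, 2607 and 2383 CPM in neuronal control and 5320, 3701, 2556 and 2286 CPM in neuronal agonist libraries. With corn oil the non-neuronal libraries held 356, 281, 127 and 322 CPM, and with the agonist 101, 108, 343 and 184 CPM. No library of one population reached the other, with folds of 10.2 (log2 3.35, SE 0.29) in control and 18.7 (log2 4.22, SE 0.43) in agonist libraries. Its values are whole numbers in all 16 libraries.

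Usp29, a deubiquitinase gene that starts opposite Peg3, was also higher in neuronal nuclei. It had 511, 640, 590 and 499 counts in neuronal control and 147, 106, 115 and 126 in non-neuronal control libraries, a log2 fold change of 2.01 (SE 0.26, edgeR adjusted p = 0.000125). With the agonist the log2 fold change of Usp29 was 2.31 (SE 0.66, edgeR adjusted p = 0.0293). That call ended without any 1 of 5 libraries, neuronal agonist 2, 3 and 4 and non-neuronal agonist 2 and 4, with adjusted p up to 0.0783. Zim1, on the other side of Peg3, had a log2 fold change of 0.96 in control (SE 0.54, edgeR adjusted p = 0.232) and 2.26 with the agonist (SE 1.05, edgeR adjusted p = 0.190). Of the 7 rows tested in this stretch with corn oil Usp29 alone was called, and of the 4 tested with the agonist 2 were called, beside 11.8% and 6.67% of all genes called higher. The second was Gm44863, which lies inside the Usp29 span on the same strand, so it need not be a separate RNA. It had 2 counts in the non-neuronal agonist libraries against 165 in the neuronal ones, a call lost without any 1 of 7 libraries.

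Usp29 counts per Peg3 count were 0.0501, 0.0581, 0.0547 and 0.0548 in neuronal control libraries. In neuronal agonist libraries they were 0.0111, 0.0370, 0.0605 and 0.0723, lowest in library 1. The non-neuronal libraries held 0.122, 0.142, 0.270 and 0.101 with corn oil and 0.421, 0.159, 0.109 and 0.0391 with the agonist. With corn oil every non-neuronal library lay above every neuronal one, while with the agonist non-neuronal library 4 lay inside the neuronal range. The contrast between the populations chose Peg3, so this is a description without a test.

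Peg3 and Usp29 share most of their start windows, and Peg3 and Meg3 are the only members whose windows hold a cAMP response element. A RefSeq start window here is the 300 bases from 250 before to 50 after a start (GRCm38.p6), and those of Peg3 and Usp29 share 263 bases. The letters TGACGTCA, the palindromic cAMP response element bound by CREB proteins, occur in 1.79% of 32851 start windows of all genes. The sequences below give 250 bases before the Meg3 start (chr12:109540746-109540995, plus strand), the 146 bases between the annotated Peg3 and Usp29 genes (chr7:6730432-6730577, minus strand) and 30 bases around the Peg3 element (chr7:6730579-6730608, minus strand), which lies in the first exon of Usp29. Capitals mark TGACGTCA or, in the stretch between the genes, GCGTG.
Meg3 upstream: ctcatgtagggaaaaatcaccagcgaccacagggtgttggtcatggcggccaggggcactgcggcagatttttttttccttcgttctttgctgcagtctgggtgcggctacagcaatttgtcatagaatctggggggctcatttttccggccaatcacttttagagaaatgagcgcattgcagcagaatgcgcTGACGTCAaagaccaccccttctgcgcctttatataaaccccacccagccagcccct
Peg3 to Usp29: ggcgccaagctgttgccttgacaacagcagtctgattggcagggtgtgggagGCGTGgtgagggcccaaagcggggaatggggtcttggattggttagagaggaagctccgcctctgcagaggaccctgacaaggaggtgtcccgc
Peg3 element: actgactccgtTGACGTCAactccgtgcct

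GCGTG, the core letters of the element that AhR binds with its partner ARNT, was searched on both strands in all start windows. It occurs in 32.4% of the 32851 windows, and in at least 1 window of 6 of the 10 genes: Peg3, Ube3a, Snhg14, Snrpn, Ndn and Dlk1. No match was found in the windows of Meg3, Rian, Mirg and Magel2. RefSeq starts are not always the starts of the gene spans given here. The Mirg window (109734731 to 109735030) lies inside its span, and that of Snhg14 (60450128 to 60450427) lies upstream of its own. The only window of Snhg14 is also 1 of the 4 windows of Snrpn, so their matches there are the same letters. Counted over distinct windows, 8 of 13 hold it, though some of the Snrpn windows are near-copies of each other. A match of so short a word is a description only.

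Snhg14, the long host RNA of the Snord115 and Snord116 small nucleolar RNAs, lies on chromosome 7 (59307924 to 59975759, minus strand, 26093 exon bases). It had 564, 620.0, 508 and 559 CPM in neuronal control and 729, 606, 674 and 667 CPM in neuronal agonist libraries. The non-neuronal libraries held 124, 128, 59.5 and 53.6 CPM with corn oil, and 109.6, 110.1, 94.7 and 34.3 CPM with the agonist. The populations did not overlap. The folds were 6.52 (log2 2.70, SE 0.31) in control and 7.53 (log2 2.91, SE 0.40) in agonist libraries. Among 210 small nucleolar RNA rows of this stretch 18 had a count, 24 counts in all, so the processed small RNAs were hardly read.

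Snrpn, which encodes the spliceosomal protein SmN, lies beside it (59982495 to 60140219, minus strand, 2159 exon bases). With corn oil it was nearly constant in neuronal nuclei, at 105, 104, 112 and 112 CPM, and with the agonist it stood at 107, 146, 111 and 104 CPM. The non-neuronal libraries held 7.40, 5.26, 22.1 and 33.4 CPM with corn oil, and 5.29, 18.5, 4.97 and 0.926 CPM with the agonist. Populations were again apart, with folds of 6.72 (log2 2.75, SE 0.51) and 15.5 (log2 3.95, SE 0.83). Snrpn shares 589 exon bases with Gm38393 and 216 with Snurf on its own strand, and none of its 16 values is a whole number, so its counts were divided between overlapping rows. Gm38393, the readthrough row, was higher in neuronal nuclei by 2.67 in log2 with corn oil (SE 0.33, edgeR adjusted p = 8.06e-05) and by 3.37 with the agonist (SE 0.59, edgeR adjusted p = 0.00161). Snurf, which encodes a short protein on the same RNA, had 176 neuronal and 23 non-neuronal control counts (log2 2.88, SE 1.16). It was not called, and it passed the count filter through its neuronal counts alone, so no p-value is given.

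Ndn and Magel2 encode MAGE family proteins whose paternal copies are lost in Prader-Willi syndrome. Ndn (62346569 to 62350262, plus strand) had 43, 25, 22 and 48 counts in neuronal control and 0, 3, 15 and 30 in neuronal agonist libraries. In non-neuronal control libraries it had 9, 5, 0 and 52 counts, and in non-neuronal agonist libraries all 242 counts were in library 4. The populations overlapped in both treatments. Magel2 (62377010 to 62381640, plus strand) had 0, 6, 5 and 5 counts in neuronal control libraries, 1 count in the neuronal agonist libraries and 0 in all 8 non-neuronal ones. Its mean in neuronal control nuclei was 4.48-fold the limit of 3 counts over the non-neuronal control group, though neuronal control library 1 was at 0 as well. That value leaves out the spread of the neuronal counts.

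Ube3a, the ubiquitin ligase lost in Angelman syndrome, was the most alike in both populations among the well-counted members (59228750 to 59311536, plus strand, 20626 exon bases). It had 293, 278, 177 and 325 CPM in neuronal control and 180.0, 125, 152 and 185 CPM in non-neuronal control libraries, and neuronal library 3 fell inside the non-neuronal range. With the agonist it had 354, 232, 342 and 371 CPM in neuronal and 337, 209.8, 215 and 150.5 CPM in non-neuronal libraries. The folds were 1.78 (log2 0.83, SE 0.24) and 1.40 (log2 0.48, SE 0.36). Ube3a counts per Snhg14 count were 0.349 to 0.582 over the neuronal and 0.974 to 4.39 over the non-neuronal libraries, without overlap.

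Reads of Ube3a and of its antisense partners could not be separated here, because the strand setting of the counting is not given in the sources used. Ube3a shares 1803 exon bases with Snhg14, 1796 with 9330162G02Rik and 2025 with Gm44560, all on the opposite strand, and none of its values is whole. Over all libraries the Ube3a row held 14294 counts, Snhg14 21682, 9330162G02Rik 12542 and Gm44560 417. The levels of Ube3a, Snhg14 and 9330162G02Rik are uncertain to that extent.

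Of the rows that lie wholly between the start of Ube3a and Peg12, which leaves out 9330162G02Rik because it extends past that start, 17 outside the 10 genes reached a mean of 10 counts per library in some group. With corn oil 14 were tested, 10 were called higher in neuronal and 0 in non-neuronal nuclei, and with the agonist 13 were tested, 4 higher and 0 lower. Over all genes the shares called higher were 11.8% and 6.67%. The count filter again lets such rows in through their neuronal counts. The largest was the noncoding A330076H08Rik with 634 ± 128 CPM in neuronal control nuclei and 61.1 ± 70.9 CPM (SD, n = 4) in the non-neuronal ones, a log2 fold change of 3.46 (SE 0.67, edgeR adjusted p = 0.00181). Its agonist call (log2 3.82, edgeR adjusted p = 0.0207) ended without neuronal agonist library 3 or 4, with adjusted p up to 0.0607. A230057D06Rik, beside it, had a log2 fold change of 3.94 in control (SE 0.46, edgeR adjusted p = 5.44e-05). Gm3257, inside the span of A330076H08Rik on the opposite strand, was higher by 4.12 in log2 in neuronal control nuclei (SE 0.85). In neuronal agonist nuclei it was higher by 6.45 (SE 1.19), a fit against 11 non-neuronal agonist counts. With the strand setting not given, Gm3257 need not be a separate RNA. It passed the count filter through its neuronal counts alone, so no p-value is given. Gm9801 was called in both treatments as well, at 3.09 (SE 0.78, edgeR adjusted p = 0.0102) and 4.32 (SE 0.74, edgeR adjusted p = 0.00143).

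Counted together, 6 of the 10 genes were higher in every neuronal than in every non-neuronal library with corn oil: Meg3, Rian, Mirg, Snhg14, Snrpn and Peg3. The share over all 15285 genes tested was 15.1%. With the agonist the same 6 genes stood apart in that way, and the share over 14065 genes was 11.7%. The rule that chose the genes used this contrast, so nothing is read from these counts. The 2 comparisons come from separate libraries.

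The level in non-neuronal nuclei, taken relative to neuronal nuclei, lay within the range of neuron markers for 6 of the genes with corn oil and for 3 of these 6 with the agonist. As a percentage of the neuronal level in control nuclei it was 5.23% for Meg3, 6.96% for Rian, 8.17% for Mirg, 10.4% for Peg3, 15.7% for Snrpn and 16.3% for Snhg14. The 10 neuron markers lay between 4.41% for Map2 and 17.3% for Uchl1, and their sum at 7.70%. With the agonist, Meg3 stood at 2.86%, Rian at 3.99%, Mirg at 2.36%, Peg3 at 5.30% and Snrpn at 6.35%, beside 3.23% to 11.0% for the markers and 5.30% for their sum. There Meg3 and Mirg lay below all 10 markers and Snhg14, at 13.0%, above them. Ube3a at 59.7% and 70.3% lay above every marker in both treatments. The part of neuronal RNA or of EGFP-negative neurons in the non-neuronal values was not tested.

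**Figure D4:**
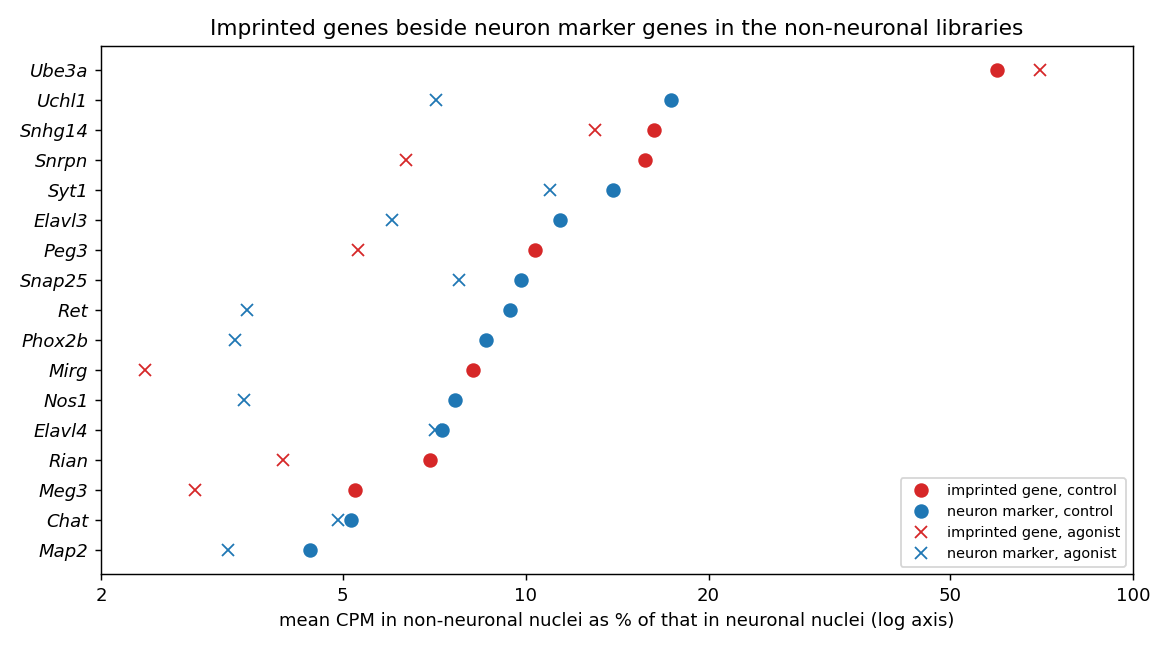
Mean level in non-neuronal nuclei as a percentage of that in neuronal nuclei (log axis) for 7 of the imprinted genes (red) and 10 neuron marker genes (blue), with corn oil (circles) and agonist (crosses); Dlk1, Ndn and Magel2 are left out for their low counts. All imprinted genes shown except Ube3a lie within the range of the markers with corn oil.

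The agonist comparisons are independent of the rule that chose the genes, and they ask whether AhR activation changed these RNAs within 14 hours. No member was called in neuronal nuclei, where 8 were tested, or in non-neuronal nuclei, where 7 were tested (edgeR quasi-likelihood F-test). The share called over all genes was 0.0% of 14182 in neuronal and 0.0135% of 14846, 2 genes, in non-neuronal nuclei. At an unadjusted p under 0.05 there were also 0 members in either population, beside 711 and 715 of all genes, and DESeq2 called 0 members, beside 9 and 35 of all genes. The 2 genes called in non-neuronal nuclei include Cyp1a1 (edgeR adjusted p = 0.0396).

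In neuronal nuclei Rian was the best bounded, with a log2 fold change of agonist over control of -0.01 (SE 0.14, 95% interval -0.31 to 0.29). Meg3 stood at -0.11 (SE 0.34, interval -0.85 to 0.63), so a change of somewhat over 1.5-fold either way lies inside the interval. Peg3 had the lowest p of the members, at 0.40 (SE 0.23, interval -0.09 to 0.90, edgeR adjusted p = 0.903), with 2 of 4 agonist libraries above every control library. Snhg14 was at 0.25 (interval -0.08 to 0.58), Mirg at 0.36 (-0.25 to 0.96), Ube3a at 0.27 (-0.23 to 0.78) and Snrpn at 0.11 (-0.40 to 0.61). Ndn, with 138 control and 48 agonist counts, was at -1.47 (-3.74 to 0.80).

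In non-neuronal nuclei the estimates leaned lower for Meg3, at -0.94 (SE 0.49, interval -1.97 to 0.10, edgeR adjusted p = 0.954), and for Rian, at -0.77 (SE 0.43, interval -1.68 to 0.15, edgeR adjusted p = 0.954). Peg3 stood at -0.53 (-1.48 to 0.42), Snrpn at -1.14 (-3.53 to 1.26) and Mirg at -1.43 (-3.92 to 1.07), all with overlapping libraries. Mirg was at -3.63 without non-neuronal agonist library 3 and Snrpn at -2.15 without non-neuronal agonist library 2, neither of them called. Snhg14 was at -0.03 (-1.13 to 1.07) and Ube3a at 0.56 (-0.21 to 1.32). The neuron marker sum was 181 to 567 CPM in non-neuronal control and 132 to 405 CPM in non-neuronal agonist libraries, with means of 310.1 and 251 CPM. The order of these means rests on non-neuronal control library 4 at 567 CPM, since the other 3 control libraries stood at 288, 204 and 181 CPM. Its part in these estimates was not tested.

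The agonist response of the members did not differ detectably between the populations. In the fit of all 16 libraries 0 of 8 members were called for the difference, beside 0.0% of 18566 genes, with 0 members and 1484 genes at an unadjusted p under 0.05. DESeq2 called 0 members and 103 genes. The difference (neuronal minus non-neuronal log2 response) was 0.97 for Peg3 (SE 0.49, interval -0.05 to 1.98), 0.80 for Rian (-0.11 to 1.72), 0.87 for Meg3 (-0.66 to 2.41) and 1.75 for Mirg (-0.43 to 3.93). Without non-neuronal agonist library 3, which held 103 of the 118 Mirg counts of its group, the difference for Mirg was 3.91 (SE 0.73, edgeR adjusted p = 0.0480) and 9 genes were called in all. The 15 counts left in that group are behind this value.

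**Figure D5:**
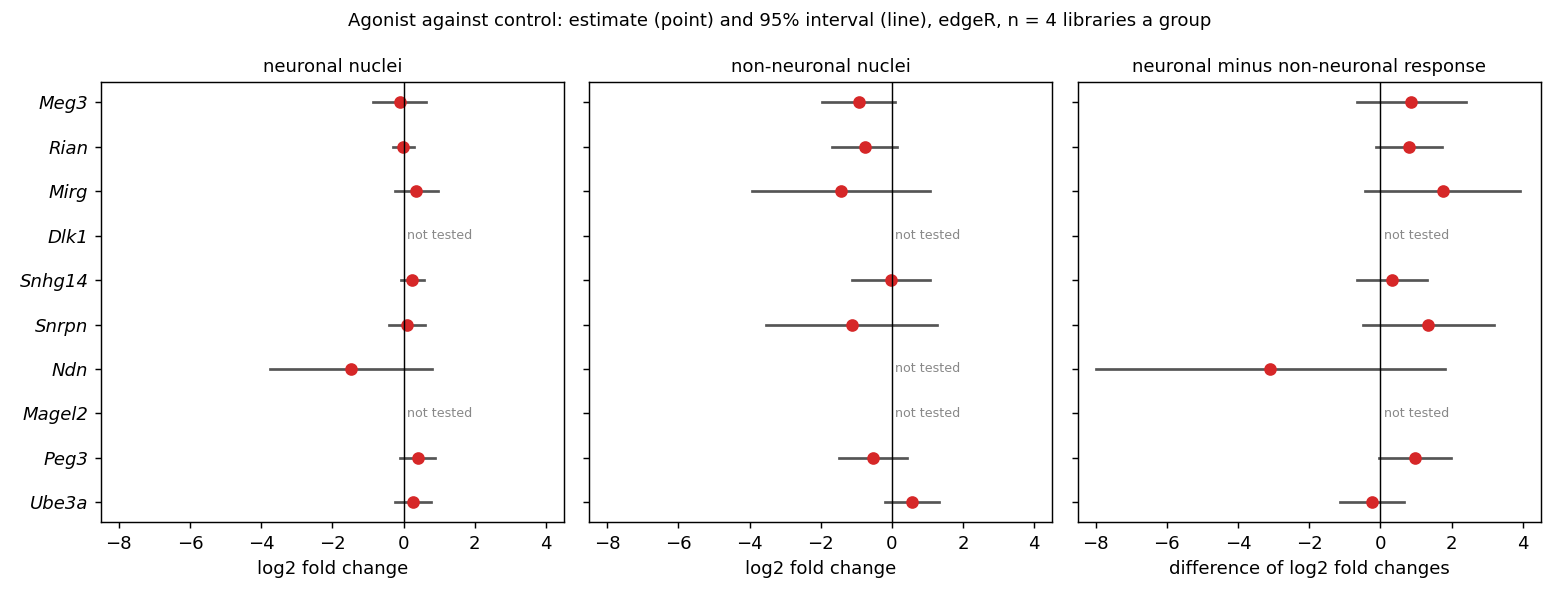
Agonist response of each member as the log2 fold change of agonist over control (edgeR; point, estimate; line, 95% interval; n = 4 libraries a group) in neuronal nuclei, in non-neuronal nuclei, and as the difference between them. Every interval includes 0; Rian in neuronal nuclei has the narrowest, from -0.31 to 0.29, and members too low to be tested are marked.

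Imprinted genes outside the group, a list of 58, did not share 1 direction between the populations. With corn oil 37 could be tested. In neuronal nuclei 8 stood higher, beside 11.8% of all genes, and 6 lower, beside 13.5%, with a median log2 fold change of 0.10 beside -0.11 over all genes tested. Apart from Rtl1 and Usp29 above, the scaffold gene Magi2 was higher by 2.06 in log2 (SE 0.39, edgeR adjusted p = 0.00172) and the translation regulator Impact by 1.31 (SE 0.24, edgeR adjusted p = 0.00138). Nap1l5 was at 1.96 (SE 0.56, edgeR adjusted p = 0.0202) and lost its call without neuronal control library 3 (0.0634). Mest, a hydrolase gene, stood at 1.19 (SE 0.40, edgeR adjusted p = 0.0424) and lost it without any 1 of 6 libraries, all but non-neuronal control 2 and 4, with adjusted p up to 0.130.

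Among the genes lower in neuronal nuclei with corn oil, the signalling adaptor Gab1 stood at -2.70 in log2 (SE 0.41, edgeR adjusted p = 0.000338). The transporter gene Slc22a18, also called, had 2 counts in neuronal and 116 in non-neuronal control libraries. It passed the count filter through its non-neuronal counts alone, so no p-value is given. Atp10a was at -2.20 (SE 0.58, edgeR adjusted p = 0.0130) and lost its call without neuronal control library 1 or 4, at up to 0.0508. Ppp1r9a, at -0.99 (SE 0.26, edgeR adjusted p = 0.0133), lost it without neuronal control library 1, at 0.0553. Igf2r, the receptor that clears IGF2, was at -1.39 (SE 0.43, edgeR adjusted p = 0.0287) and lost it without neuronal control 1, 2 or 4 or non-neuronal control 1, at up to 0.113. Plagl1, at -1.53 (edgeR adjusted p = 0.0498), lost it without any library except non-neuronal control 2, at up to 0.153.

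With the agonist 37 of the 58 were tested, with 4 higher, Begain, Mest, Magi2 and Usp29, beside 6.67% of all genes, and 4 lower, Igf2, Atp10a, Ddc and Airn, beside 6.97%, and a median of -0.03 beside -0.15 over all genes. Each of these 8 calls ended without at least 3 different single libraries, with adjusted p up to 0.221 for Ddc. Begain, a postsynaptic protein gene next to Dlk1, had 305 counts in neuronal and 5 in non-neuronal agonist libraries. Igf2, the paternally expressed growth factor, had 2 and 106, and Atp10a, at the far end of the Ube3a region, 15 and 415. Begain, Igf2 and Atp10a passed the count filter here through the group where they were higher, so their calls have no weight as evidence. None of the 58 was called in either agonist comparison or for their difference (edgeR; 37, 38 and 43 tested), beside 3, 0 and 1 at an unadjusted p under 0.05.

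Of 20 factors that set, keep or read imprints, including the polycomb repressive complex, all 20 were tested with corn oil, and 3 were higher and 2 lower in neuronal nuclei, a share close to the 25.4% of all genes called in either direction. Zfp57, a zinc finger protein that protects imprints from demethylation, had 53.7 ± 3.92 CPM in neuronal control nuclei and 5.47 ± 4.74 CPM (SD, n = 4) in the non-neuronal ones, a log2 fold change of 3.38 (SE 0.61, edgeR adjusted p = 0.00125). The DNA methyltransferase Dnmt3a was higher by 1.49 (SE 0.37, edgeR adjusted p = 0.00953). Zfp445, a second imprint-protecting zinc finger, was higher by 0.75 (SE 0.22, edgeR adjusted p = 0.0232), a call lost without neuronal control library 1 or 3, at up to 0.0582. Ezh2, the polycomb methyltransferase, was at -1.39 (SE 0.41, edgeR adjusted p = 0.0240), lost without any 1 neuronal control library or non-neuronal control 3, at up to 0.0931. Uhrf1, which guides maintenance methylation in dividing cells, had 7 counts in neuronal and 99 in non-neuronal control libraries. It passed the count filter through its non-neuronal counts alone, so no p-value is given. Its call was lost without neuronal control 1, 2 or 4 or non-neuronal control 2 or 3. With the agonist, 1 of 18 tested was called, beside 13.6% of all genes, Tet1 at 1.82 (edgeR adjusted p = 0.0442), a call lost without any library except neuronal agonist 1, at up to 0.166.

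A list of 16 known partners and targets of these genes gave 1 higher and 2 lower of 14 tested with corn oil, again near the 25.4% of all genes. Notch1, the receptor that Dlk1 is known to antagonise, had 1.45 ± 1.23 CPM in neuronal control nuclei and 47.3 ± 10.1 CPM (SD, n = 4) in the non-neuronal ones. Its log2 fold change was -4.91 (SE 0.69). It passed the count filter through its non-neuronal counts alone, so no p-value is given. With the agonist Notch1 stood at -6.39 (SE 1.13), the only one of 14 called, beside 13.6% of all genes. Herc2, a ligase partner of UBE3A, was higher with corn oil by 0.82 (SE 0.22, edgeR adjusted p = 0.0139). Mef2c, of a transcription factor family known to switch on microRNAs of the Dlk1 to Dio3 cluster, was at -1.24 (SE 0.37, edgeR adjusted p = 0.0257), lost without neuronal control 1, 2 or 3 or non-neuronal control 4, at up to 0.0921. Neither list had a member called in an agonist comparison (edgeR), where 1 and 0 of the imprint factors and 0 and 0 of the partners had an unadjusted p under 0.05 in neuronal and non-neuronal nuclei.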

How the data were processed

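The deposited table holds expected counts per Ensembl gene for 16 nuclear RNA libraries, not scaled to library size. Per the labels' protocols, the Ovation RNA-Seq System V2 served for cDNA, read as single ends of 75 bases. Per the submitters' processing notes, the authors used RSEM 1.3.0, STAR 2.5.2 and build GRCm38, and the notes list DESeq2 1.10.1. Neither the annotation release nor the strandedness is given in the sources used here. RSEM divides reads among overlapping rows, so 2 of 16 Meg3 values and 0 of 16 Ube3a values were whole numbers. Expected counts were rounded and fitted in edgeR 4.0.16 (R 4.3.3; TMM scaling, robust quasi-likelihood F-test, two-sided, filterByExpr with minimum count 10 and minimum total 15). Adjusted p-values are Benjamini-Hochberg over all genes tested in a comparison, called under 0.05, and DESeq2 1.42.0 was an alternative. The table's headers carry a project name about a knockout that the sources used here do not explain, and groups were taken from the labels.

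Each comparison used its own 8 libraries, and the difference between populations all 16. Levels are TMM-scaled CPM over all 16 libraries, per kilobase of merged exons of GENCODE M21 where genes are compared. That annotation gave a symbol for 51719 identifiers and none for 193. Correlations used log2(CPM + 0.5). Replicates differed beyond sampling noise, with a chi-square per degree of freedom from 8.78 to 156. Sequences are from RefSeq tables of GRCm38.p6. The scripts were tested on simulated data. The members, the lists and the comparisons were chosen with earlier results of these data known. Named are the 10 members, other imprinted genes in their 3 clusters or among the up to 6 called in each direction, called regulators and partners, the 5 genes most like Meg3 (1 of them, over neuronal libraries, is not reported here), and cluster rows with a mean of at least 10 counts in a group.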

Additional observations from a re-analysis of the deposited data

Results flagged for a closer look

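In 6 of 37 groups of 4 libraries, 1 library of a member lay far from the other 3 by Dixon's criterion, where chance gives about 1 in 20. That rate does not hold for the groups of Ndn and Magel2 with 3 values at 0. It is also doubtful for the groups of Dlk1 and Mirg, whose other libraries held few counts. No excess over chance is therefore read from the 6. Mirg was at 26.9 CPM in non-neuronal agonist library 3, with 3.02 CPM as the highest of the others. Dlk1 was at 10.2 CPM in non-neuronal agonist library 1, against at most 0.523, and at 14.4 CPM in non-neuronal control library 3, against at most 1.50. Ndn was at 56.0 CPM in non-neuronal agonist library 4, from 242 counts, with 0 in the others. Snrpn was at 146 CPM in neuronal agonist library 2, against at most 110.6. Magel2 was at 0.219 CPM in neuronal agonist library 2, which is 1 count, with 0 in the others.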

How the results depend on the processing

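The count of genes called depended on the analysis more than the members did. In neuronal nuclei the agonist comparison called 0 genes, 9 with DESeq2 and 152 without the count filter. In non-neuronal nuclei it called 2, and 35 with DESeq2, 88 without the filter, 11 with all 4 groups in 1 fit and 0 with library size only. The difference called 0 genes, 103 with DESeq2 and 110 without the filter. Neuronal against non-neuronal nuclei gave 1918 calls with the agonist, and 4590 with all 4 groups in 1 fit, 2953 with DESeq2 and 3324 without the filter. With corn oil it gave 3876, and 2710, 4769 and 5531 in the same order. Leaving out 1 library gave 0 to 0, 0 to 2, 0 to 9, 3399 to 4735 and 1553 to 2064 calls in the 5 comparisons. The members called for the difference numbered 0 to 1, and in every other analysis 0 members were called in the agonist comparisons. Scaling by library size only moved the median log2 fold change of all genes from -0.11 to 0.11 with corn oil and from -0.15 to 0.43 with the agonist. The split of higher and lower calls then went from 1811 and 2065 to 2084 and 1679, and from 938 and 980 to 1332 and 649. Meg3, Rian, Mirg, Snhg14, Snrpn, Peg3 and Ube3a stayed higher in neuronal nuclei in each of these analyses.

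Some uncalled agonist estimates near 0, and that of Ndn, changed sign, and the cause was not tested. In neuronal nuclei, leaving out 1 library took Meg3 from -0.47 to 0.15, Rian from -0.085 to 0.075 and Snrpn from -0.023 to 0.16, and Rian was at 0.0098 with DESeq2 and at 0.0099 with RLE factors. In non-neuronal nuclei Snhg14 ran from -0.21 to 0.24 in that way. For the difference, Ndn ran from -4.75 to 5.56, the latter without non-neuronal agonist library 4, and Ube3a from -0.49 to 0.015, with 0.10 at library size only.

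Over all genes, deviations of same-numbered libraries correlated only weakly, from -0.10 to 0.18. They were best with their own number in 1, 2, 3 and 2 of 4, and pairs were not modelled in the main fits. Control library 3 was highest of its group in both populations for the epithelial marker sum (99.8 and 14801 CPM) and mitochondrial share (6.11% and 26.3%). Control library 4 was highest in both for the smooth muscle sum (857 and 12294 CPM) and fibroblast sum (48.4 and 1340 CPM). With the agonist, only the fibroblast sum was highest in the same number, library 3 (14.3 and 996 CPM). The Meg3 to Rian ratio was lowest in library 4 of every group. The labels do not say what a number stands for, and the main population SEs and p-values leave out any pairing. With a replicate block the calls numbered 0, 2, 0, 3731 and 1941, with 0 members called in the agonist comparisons. With all 4 groups in 1 fit, the corn oil calls of Rtl1, Inpp5f, Kcnq1ot1, Dnmt3a and Herc2 were also lost, and without the count filter those of A330076H08Rik and Gm9801.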
